A study of Ovis aries with 17 samples.

Results

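XCR1, BATF3 and CADM1 are 3 genes by which type 1 conventional dendritic cells (cDC1) are recognised in mammals. Each was read by 1 probe of a custom ovine Agilent one-colour array (A_70_P022656, A_70_P035131 and A_70_P010771), and the 3 probes were picked by name out of 15060 probes that are no control. All 3 passed the filter on dim probes, which left 11311 genes. The 17 arrays, 1 per RNA sample, came from 6 subsets of cells of control sheep, and the labels name no stimulation and no genetic change. The subsets were spleen B lymphocytes (B, 4 arrays) sorted with an antibody to ruminant B cells, spleen monocytes and macrophages (MP, 3 arrays) sorted by CD14, blood plasmacytoid dendritic cells (pDC, 3 arrays) sorted as CD45RB-positive low density cells without staining for B cells, CD11b, γδ T cell receptor (TCR1), CD8 or CD11c, dendritic cells grown with GM-CSF (MoDC, 3 independent cultures, whose deposited names read BMDC), blood cells labelled XCR1- DC (called cDC2 here, 3 arrays) and blood cells labelled XCR1+ DC (called cDC1 here, 1 array). In spite of these labels, no antibody to XCR1 entered the sort: cDC1 were taken as CADM1-high, CD172-low and cDC2 as CADM1-low, CD172-high cells, after removal of cells with B cell, CD11b, γδ T cell receptor or CD45RB staining. The level of CADM1 on cDC1 and cDC2 is therefore a check of the gate and no finding. Before the arrays, the paper used qPCR of XCR1, BATF3 and other genes as a control of the sorts. It reported XCR1 and BATF3 higher in sheep cDC1 than in the other cells, so their high level there was already known. RNA of several animals was mixed where a sort gave too little, and the labels do not say on which arrays, so p-values cover the spread between arrays, which is not always a spread between animals. For the cDC1 array the series text names 1 sheep, whereas the sort description speaks of several and the deposited name of that array calls it a pool. The paper proposes that B cells likely contaminated its sheep pDC and that pDC probably contaminated its sheep cDC2. The part of such cells in the levels below was not tested. In bulk samples, fewer cells of a type and less RNA per cell cannot be told apart.

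Dendritic cells take up antigen and present it to T lymphocytes, and cDC1 are known for showing antigen of other cells to CD8 T cells. XCR1 is the receptor of the chemokine XCL1, which activated CD8 T cells and NK cells release. BATF3 is a short basic leucine zipper transcription factor that pairs with JUN proteins, acts with IRF8 and is needed for cDC1 to develop in mice. CADM1 is an adhesion molecule of the immunoglobulin superfamily that binds CRTAM on activated T cells, and it is also present on cells outside the immune system.

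The readings rest on these probes, which are shown because each gene was read here by a single probe. The whole probe is given for XCR1, bases 19 to 48 for BATF3 with the letters AATAAA in capitals, and bases 31 to 60 for CADM1, all as the array files print them, 5′ to 3′.
XCR1: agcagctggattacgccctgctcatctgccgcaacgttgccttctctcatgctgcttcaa
BATF3: tagcgtatgcatAATAAAggcattgtcggg
CADM1: ccattccgaccatagtaaaatcgtatcaaa
AATAAA is the usual signal for cleavage before the poly(A) tail. It was searched on both strands, with overlaps allowed, and among the 3 probes it was present in that of BATF3 only, from base 31. Of all 15060 probes, 7.54% held it on the printed strand and 11.2% on either strand. The GC content was 55% for the XCR1 probe and 45% for the other two, against a median of 43.3% over all probes. The longest run that a member's probe shared with any other probe of the array, on either strand, was 16 bases for XCR1, 15 for BATF3 and 13 for CADM1. No genome was used here and the array files name no build, so no coordinates are given for these sequences.

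Levels are on a log2 scale, as the background-corrected signal less the 75th percentile of its array, so that 0 is a signal equal to that percentile. They compare 1 probe between arrays, and the level of one probe is not set against that of another. The 75th percentile itself lay between 194 and 688 signal units, and between 61.1% and 80.2% of spots were well above background on an array. Each of the 3 probes was printed on 5 spots, and every spot used was well above background on all 17 arrays. The marker lists had few named probes. CR2, a complement receptor of B cells, was at 4.20 to 4.25 on B and at most at -0.53 elsewhere. CD14 was highest on MP and MoDC. TCF4, the transcription factor of pDC, was at 0.71 to 1.78 on pDC, a range that overlapped with B and cDC2. SIRPA, which encodes the CD172 of the gate, was well above background on none of the 17 arrays, and none of the 6 listed MoDC markers had a named probe. Arrays of slides 1, 2 and 3 each held 1 array of B, pDC, MP and MoDC, while slide 4 held B replicate 4 and all arrays of cDC2 and cDC1. Slide 4 was also read with another scanner and another software version, so these differences and membership of the cDC subsets cannot be told apart except through B replicate 4.

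**Figure D1:**
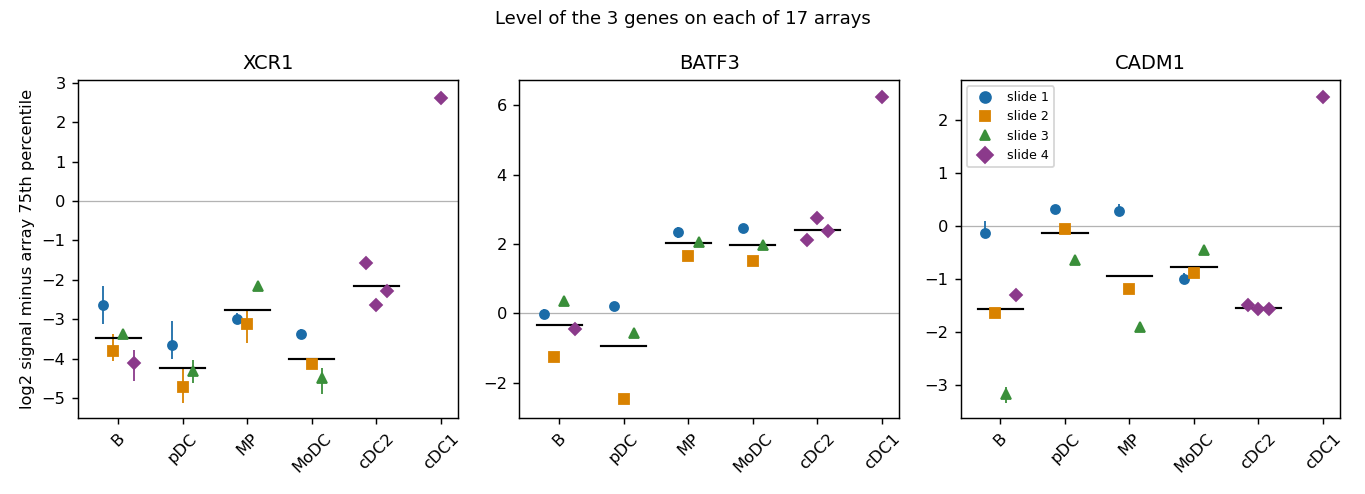
Level of XCR1, BATF3 and CADM1 (log2 signal minus the array's 75th percentile, vertical axis) on each of the 17 arrays by subset. Points are arrays, with the slide as shape and colour, vertical lines run from the lowest to the highest of the spots of an array, and horizontal bars are means of the 5 replicated subsets. The cDC1 array lies above the 16 other arrays in all 3 panels, and the other subsets differ in order from panel to panel.

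XCR1 was by far highest on the cDC1 array, and outside it was low but not equal. Its level was 2.61 on the cDC1 array. On cDC2 it was -1.58, -2.63 and -2.29, and on MP it was -2.99, -3.11 and -2.17. These were the highest subsets after cDC1, and their arrays overlapped. The 4 B arrays had -2.64, -3.81, -3.36 and -4.11. MoDC had -3.38, -4.12 and -4.49, and pDC had -3.65, -4.72 and -4.31. These last subsets overlapped with each other and with B. The order of means was thus cDC2 (-2.16 ± 0.54, SD, n = 3), MP (-2.76 ± 0.51, n = 3), B (-3.48 ± 0.64, n = 4), MoDC (-4.00 ± 0.57, n = 3) and pDC (-4.23 ± 0.54, n = 3). Neighbours in this order did not pass the test, and the ranges of neighbouring subsets overlapped.

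Among the 5 replicated subsets the level of XCR1 differed in limma's F test (adjusted p = 0.00596), as did that of 56.4% of all genes. A pair of subsets was called where the difference reached 2-fold and limma's p, adjusted over all genes by Benjamini-Hochberg, was under 0.05. XCR1 was called in 4 of 10 pairs, and 33.8% of all genes were called in at least 4. It was higher on cDC2 than on pDC, where 20.2% of genes were called, by 2.07 (log2, 95% interval 1.09 to 3.04, 4.19-fold, limma adjusted p = 0.00460). It was higher on cDC2 than on MoDC by 1.83 (0.86 to 2.80, 3.56-fold, limma adjusted p = 0.00641), where 33.4% were called. In these comparisons cDC2 was the higher side, and it was so against B as well. The difference between cDC2 and B was 1.32 (0.41 to 2.22, 2.49-fold, limma adjusted p = 0.0346), where 23.1% were called. MP was above pDC by 1.47 (0.50 to 2.44, 2.78-fold, limma adjusted p = 0.0247), where 25.9% were called. The arrays of the 2 subsets did not overlap in any of these 4 pairs, nor did they for 52% (pDC and cDC2), 50.1% (MoDC and cDC2), 46.1% (B and cDC2) and 46.3% (pDC and MP) of all genes. They did not overlap between MP and MoDC either, as for 36.7% of all genes, but the difference of 1.24 (0.27 to 2.21) missed the threshold with a limma adjusted p of 0.0555. The other pairs differed by 0.23 to 0.75. The median difference over all genes in a pair ranged from -0.32 to 0.31 on this scale.

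XCR1 was dim outside the cDC1 array, where its signal was 14.7 to 170 units, against medians of 1.41 to 6.47 for the negative control spots, and the SD between spots of 1 array reached 0.39. With a normexp background correction, which adds an offset to every spot, none of the 10 pairs was called and 5 had an unadjusted limma p under 0.05, while in the series table of the authors 2 pairs were called. The difference between B and cDC2 was no longer called without B replicate 2, 3 or 4 or without cDC2 replicate 1 or 3 (limma adjusted p = 0.0538 to 0.153). B minus cDC2 was then -1.38 to -1.02, against -1.32 with all arrays and -0.64 with normexp. The difference between pDC and MP was no longer called without pDC replicate 2 or 3 or MP replicate 3 (0.0657 to 0.108), nor when signals below 32 were set to 32 (0.0972). pDC minus MP was -1.43 to -1.18 with these arrays left out and -0.99 with the floor of 32. That between MP and MoDC became called without B replicate 1 (0.0422) or MoDC replicate 1 (0.0273), with slide as a block (0.0254, and 0.0378 with slides 1 to 3 only), with the replicate number as a block (0.0194) and when signals below 32 were set to 32 (0.0327).

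Within slides, XCR1 was lower on pDC than on MP on 3 of 3 slides, by 0.66 to 2.14. It was higher on MP than on MoDC on 3 of 3 slides, by 0.39 to 2.32, and higher on B than on pDC on 3 of 3 slides, by 0.92 to 1.01. B was also above MoDC on 3 of 3 slides, by 0.32 to 1.13. Other pairs changed direction between slides, with -1.19 to 0.34 for B minus MP and -0.60 to 0.18 for pDC minus MoDC. With slide as a block, XCR1 was -1.95 for B minus cDC2, -2.90 for pDC minus cDC2 and -2.67 for MoDC minus cDC2 (limma adjusted p = 0.0471, 0.0336 and 0.0285), and these values pass through B replicate 4 alone.

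BATF3 divided the subsets other than cDC1 into a high and a low group, with MP, MoDC and cDC2 high and B and pDC low. The level was 6.24 on the cDC1 array. It was 2.10, 2.75 and 2.36 on cDC2, 2.36, 1.64 and 2.05 on MP, and 2.46, 1.5 and 1.96 on MoDC. These arrays lay between 1.5 and 2.75 and the 3 subsets overlapped. B had -0.01, -1.27, 0.36 and -0.45, and pDC had 0.20, -2.46 and -0.58, so that the highest array of B and pDC stayed below the lowest of MP, MoDC and cDC2. The means were 2.41 ± 0.33 (SD, n = 3) on cDC2, 2.02 ± 0.36 (n = 3) on MP, 1.97 ± 0.48 (n = 3) on MoDC, -0.34 ± 0.70 (n = 4) on B and -0.95 ± 1.37 (n = 3) on pDC.

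The level of BATF3 differed among the 5 replicated subsets (limma F test, adjusted p = 0.000250). All 6 pairs of a low with a high subset were called, and 14.8% of all genes were called in at least 6 of the 10 pairs. B was below MP by 2.36 (log2, 95% interval 1.22 to 3.50, 5.13-fold, limma adjusted p = 0.00397), where 24.3% of genes were called. B was below MoDC by 2.32 (1.17 to 3.46, 4.99-fold, limma adjusted p = 0.00300), where 36.1% were called, and below cDC2 by 2.75 (1.61 to 3.89, 6.73-fold, limma adjusted p = 0.00173). The differences of pDC from these subsets went the same way. pDC was below MP by 2.96 (1.74 to 4.19, 7.80-fold, limma adjusted p = 0.00118). It was below MoDC by 2.92 (1.70 to 4.14, 7.57-fold, limma adjusted p = 0.00103), where 33% were called, and below cDC2 by 3.35 (2.13 to 4.58, 10.2-fold, limma adjusted p = 0.000731). The arrays of the 2 subsets did not overlap in these 6 pairs, as for 39.4% (B and MP), 38% (B and MoDC), 46.1% (B and cDC2), 46.3% (pDC and MP), 41.9% (pDC and MoDC) and 52% (pDC and cDC2) of all genes. Within the high group the differences were 0.042 between MP and MoDC (-1.18 to 1.27), 0.39 between cDC2 and MP (-0.83 to 1.61) and 0.43 between cDC2 and MoDC (-0.79 to 1.66). B and pDC differed by 0.60 (-0.54 to 1.75). The intervals of these 4 pairs include differences of more than 2-fold, so equal levels are not shown.

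The 6 calls of BATF3 held under each alternative in which the pair could be fitted, each left-out array and each block included. Within slides 1 to 3, B was below MP by 1.69 to 2.91 and below MoDC by 1.60 to 2.77, and pDC was below MP by 2.15 to 4.11 and below MoDC by 2.26 to 3.96. pDC replicate 2 was the lowest array, and its 5 spots had an SD of 0.073. Without it the differences of BATF3 were smaller, at -2.20 for pDC minus MP, -2.16 for pDC minus MoDC and -2.59 for pDC minus cDC2 (limma adjusted p = 0.00388, 0.00342 and 0.00226). CD14, a marker of macrophages and monocytes, was higher on the subsets with high BATF3. Of the 9 such markers in the list, CD14, CSF1R and ITGAM had a named probe, and their summed signal relative to the 75th percentile was 39.9 to 115 on MP, 59.1 to 108 on MoDC, 12.1 to 13.1 on cDC2 and 8.19 on the cDC1 array, against 0.399 to 0.708 on B and 0.885 to 1.13 on pDC. Most of this sum was CD14. The means of CSF1R were -0.43 on MP, -2.86 on cDC2 and -3.54 on MoDC against -4.86 on B and -6.88 on pDC. In means CSF1R thus had the same high and low subsets as BATF3, but its arrays were not separate. The highest B array (-3.43) lay above the lowest of cDC2 (-3.46) and of MoDC (-4.22). CSF1R was well above background on 11 arrays, which included all of MP, MoDC and cDC2 but not all of B or of pDC. ITGAM, which encodes CD11b, had means of -1.74 on MP and -1.24 on MoDC against -4.58 on B and -6.71 on pDC. The mean of cDC2 (-4.75) was above that of pDC but not above that of B. ITGAM was well above background on 12 arrays, which included all of MP, MoDC and cDC2 but not all of B or of pDC. Its means on B and pDC thus include readings not well above background, so the place of cDC2 beside them is a description. On the cDC1 array, which was the highest in BATF3, CSF1R and ITGAM were not well above background. The gate of cDC1 and cDC2 left out cells with CD11b, and the part of other macrophages or monocytes in the level of BATF3 was not tested.

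**Figure D2:**
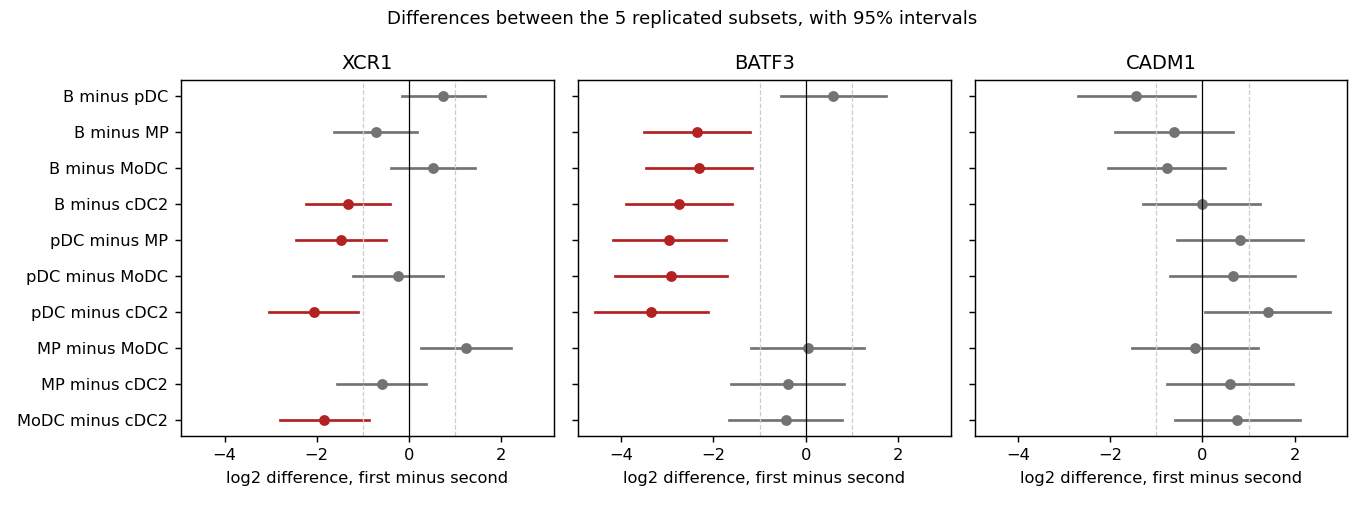
Difference of the first minus the second subset (log2, horizontal axis) for the 10 pairs of replicated subsets and the 3 genes, with 95% intervals of the limma fit. Red marks called pairs, grey the others, and dashed lines a 2-fold difference. XCR1 is called in 4 pairs, BATF3 in 6, each between a subset of the low group and one of the high group, and CADM1 in none.

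CADM1 was well above background on every array, and no pair of the 5 replicated subsets was called. Its level was 2.44 on the cDC1 array, where the gate asked for the protein. On pDC it was 0.32, -0.05 and -0.63, and on MoDC -1.0, -0.88 and -0.45. MP had 0.29, -1.19 and -1.91, so that 1 MP array lay among those of pDC and the others below. B had -0.13, -1.63, -3.16 and -1.30. The 3 cDC2 arrays, gated for low CADM1, had -1.48, -1.57 and -1.56. The means were -0.12 ± 0.48 (SD, n = 3) on pDC, -0.78 ± 0.29 (n = 3) on MoDC, -0.94 ± 1.12 (n = 3) on MP, -1.54 ± 0.05 (n = 3) on cDC2 and -1.56 ± 1.25 (n = 4) on B. The arrays of cDC2 lay together, while those of B and MP were spread widely, and neighbours in the order of means did not pass the test.

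The F test of limma over the 5 subsets gave an adjusted p of 0.219 for CADM1. None of its 10 pairs was called, as for 34.9% of all genes (65.1% were called in at least 1 pair), and 2 pairs had an unadjusted limma p under 0.05. pDC was above B by 1.43 (log2, 95% interval 0.16 to 2.71, limma adjusted p = 0.161), where 9.22% of genes were called. It was above cDC2 by 1.42 (0.056 to 2.78, limma adjusted p = 0.132), and the arrays of these 2 subsets did not overlap, as for 52% of genes. MoDC and cDC2 did not overlap either, as for 50.1% of genes, with a difference of 0.76. The pair of pDC and cDC2 was called when only its own 6 arrays entered the fit (limma adjusted p = 0.0089). Since cDC2 were gated for low CADM1, the differences of other subsets from cDC2 bear on the gate and are no finding. Apart from pDC with B and with cDC2, the pairs differed by 0.018 to 0.82. The interval of each pair reached 1.36 log2 units or less to either side of the difference, so that differences of up to 2.78 stay within them.

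In both B and MP the level of CADM1 was highest on the array of slide 1 (-0.13 and 0.29) and lowest on that of slide 3 (-3.16 and -1.91) among slides 1 to 3. The order was the same in pDC (0.32, -0.05 and -0.63 on slides 1, 2 and 3) and opposite in MoDC (-1.0, -0.88 and -0.45), and with 1 array of a subset on each of these slides, slide and sample cannot be told apart. Within slides, pDC was above B on 3 of 3 slides, by 0.45 to 2.53, and above MP on 3 of 3 slides, by 0.026 to 1.28. B was below MP on 3 of 3 slides, by 0.42 to 1.25. The pairs with MoDC changed direction between slides. B minus MoDC ran from -2.71 to 0.87, MP minus MoDC from -1.46 to 1.29 and pDC minus MoDC from -0.18 to 1.32. With slide as a block, CADM1 was -1.52 for B minus pDC (limma adjusted p = 0.0819). Some markers of T and NK cells were also high on pDC. Of 9 listed, CD28, CD3D, CD3E and GNLY had a named probe, with a summed relative signal of 42.3 to 47.7 on pDC against 0.400 to 9.28 on the arrays of the other replicated subsets and 2.60 on the cDC1 array. CD3D, CD3E and GNLY were each highest on a pDC array, whereas CD28 was well above background on 2 of 17 arrays and was highest on MP replicate 2. The pDC gate left out cells with TCR1 or CD8, and the part of other T or NK cells in the CADM1 level of pDC was not tested.

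The cDC1 array could not be tested, since it is a single array, and its values are a description. All 3 genes were higher there than on any of the 16 other arrays, which held for 10% of all genes (40.8% were above every array of cDC2). The lead over the highest other array was 4.19 for XCR1 (18.2-fold, over cDC2 replicate 1), 3.49 for BATF3 (11.2-fold, over cDC2 replicate 2) and 2.12 for CADM1 (4.36-fold, over pDC replicate 1). A lead of 2-fold or more was found for 1.36% of genes, and in the order of leads XCR1, BATF3 and CADM1 had ranks 11, 23 and 51. Without cDC2 replicate 1 the lead of XCR1 was 4.78. CADM1 was a criterion of the gate, so its place is no finding. XCR1 and BATF3 had served in the qPCR control of the sorts. Spots of the cDC1 array agreed closely, with an SD of 0.06 over 4 spots for XCR1, 0.05 over 5 for BATF3 and 0.03 over 5 for CADM1, and that SD does not measure the spread between sorts.

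Against the mean of each subset, XCR1 on the cDC1 array was higher by 4.78 than on cDC2 (27.4-fold), by 5.37 than on MP, by 6.09 than on B, by 6.61 than on MoDC and by 6.84 than on pDC (115-fold). BATF3 was higher by 3.84 than on cDC2 (14.3-fold), by 4.23 than on MP, by 4.27 than on MoDC, by 6.59 than on B and by 7.19 than on pDC (146-fold). CADM1 was higher by 2.56 than on pDC (5.91-fold), by 3.22 than on MoDC, by 3.38 than on MP, by 3.98 than on cDC2 (15.8-fold) and by 4.00 than on B. A level at least 2-fold above the subset mean was found on the cDC1 array for 21.7% of genes against B, 22.5% against pDC, 24% against MP, 32.2% against MoDC and 8.13% against cDC2. The leads over the highest other array were 2.20, 1.65 and 0.63 for XCR1, BATF3 and CADM1 with the normexp correction. HBB, the only red cell marker of 3 with a named probe, had a relative signal of 1.77 on the cDC1 array, 0.14 to 1.34 on cDC2, 0.14 to 0.87 on pDC and at most 0.040 elsewhere, and its part in these levels was not tested.

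**Figure D3:**
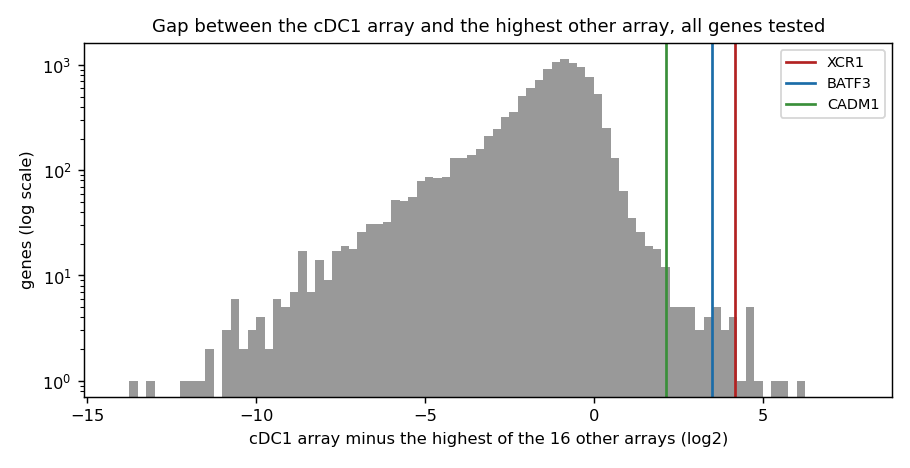
Level on the cDC1 array minus the highest of the 16 other arrays (log2, horizontal axis) for all 11311 genes, as a histogram with a log scale of gene counts. Vertical lines mark CADM1 (2.12), BATF3 (3.49) and XCR1 (4.19), which lie in the right tail, where 1.36% of genes lead by 2-fold or more.

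Of 30 other genes in a list of cDC1 genes, CLEC9A, FLT3, IRF8 and ID2 had a named probe. CLEC9A, a receptor for dead cells, was well above background on the cDC1 array only, at -1.31. It passed the filter on dim probes through that array alone, so its lead there was fixed by the filter and is given as a description. It was at least 25.1-fold higher there than on cDC2 and at least 11.6-fold higher than on MP. These bounds set the dim arrays at the lowest signal that was well above background, or at the signal of the probe where that was higher. FLT3, IRF8 and ID2 were well above background on all 17 arrays, and their highest level was also on the cDC1 array, with leads of 1.19, 0.82 and 0.11. FLT3, the receptor of the growth factor on which dendritic cells depend, was at 2.69 on the cDC1 array and at 1.5, 1.30 and 1.26 on cDC2. On pDC it was -1.06, -1.24 and -0.16, and on B no array was above -4.00. FLT3 was called in 9 of the 10 pairs, and 14.8% of all genes were called in at least 6. In FLT3, cDC2 was 66.8-fold above B (limma adjusted p = 6.46e-07), where 23.1% of genes were called.

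IRF8, the partner of BATF3 in cDC1, was at 6.44 on the cDC1 array and at 4.42, 4.5 and 5.62 on pDC. It was at 4.44, 4.10 and 4.33 on cDC2, and it was called in 7 pairs. A second IRF8 probe was also highest on the cDC1 array, but by 0.061 only, against 0.82 for the first probe, with pDC replicate 3 next. ID2, which holds back E proteins and so the pDC programme, was at 5.44 on the cDC1 array and led by 0.11 over MoDC replicate 3. Among the replicated subsets ID2 had the same low subsets as BATF3, with means of 0.80 on B and 0.72 on pDC against 3.59 on cDC2, 4.19 on MP and 4.84 on MoDC, and all 6 pairs between them were called (6.90-fold to 17.5-fold). Like IRF8 and ID2, 14.8% of all genes were called in at least 6 of the 10 pairs.

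Of 49 other chemokine ligands and receptors, 8 had a named probe and 7 of them differed among the replicated subsets in the F test, as did 56.4% of all genes. XCL1, the ligand of XCR1, was at -1.71 on the cDC1 array. On pDC it was 0.29, 2.66 and 0.43, and on MoDC it was -0.21, -1.67 and 1.26. B had -1.51, -2.13, -1.80 and -1.35, and on MP and cDC2 no array was above -2.08. The mean of XCL1 was highest on pDC, where replicate 2 was the highest array, but MoDC replicate 3 lay above the other pDC arrays. In XCL1, pDC was not called against MoDC (2.52-fold, limma adjusted p = 0.137), while pDC was above cDC2 by 12.6-fold (limma adjusted p = 0.00125), above MP by 12.9-fold (limma adjusted p = 0.000728) and above B by 7.11-fold (limma adjusted p = 0.00948). The pDC arrays also carried the T and NK cell markers given above, in spite of the gate against TCR1 and CD8, and the part of such cells in XCL1 was not tested. CXCL10, which draws T cells, was the only one of the 8 with its highest level on the cDC1 array, by 0.48. CXCL1 did not pass the F test (adjusted p = 0.92). On the cDC1 array CCR3, CCR10 and CCL25 were below the highest other array, with differences of -3.40, -3.53 and -0.80, CXCL8 was far below MoDC, and CCR9 was not well above background.

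Of the other genes of the BATF, AP-1 and IRF families and their partners, IRF8 and ID2 are given above, IRF1 and IRF2 also had a named probe, and of these 4 genes IRF8 and ID2 were highest on the cDC1 array. IRF1, which is induced by interferon, was at 2.17, 1.72 and 1.86 on MP and at -1.19 on the cDC1 array. IRF2 was called in 1 pair, pDC above cDC2 by 2.42-fold (limma adjusted p = 0.0115), where 20.2% of genes were called. None of 24 listed relatives and binding partners of CADM1, CRTAM among them, had a named probe.

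**Figure D4:**
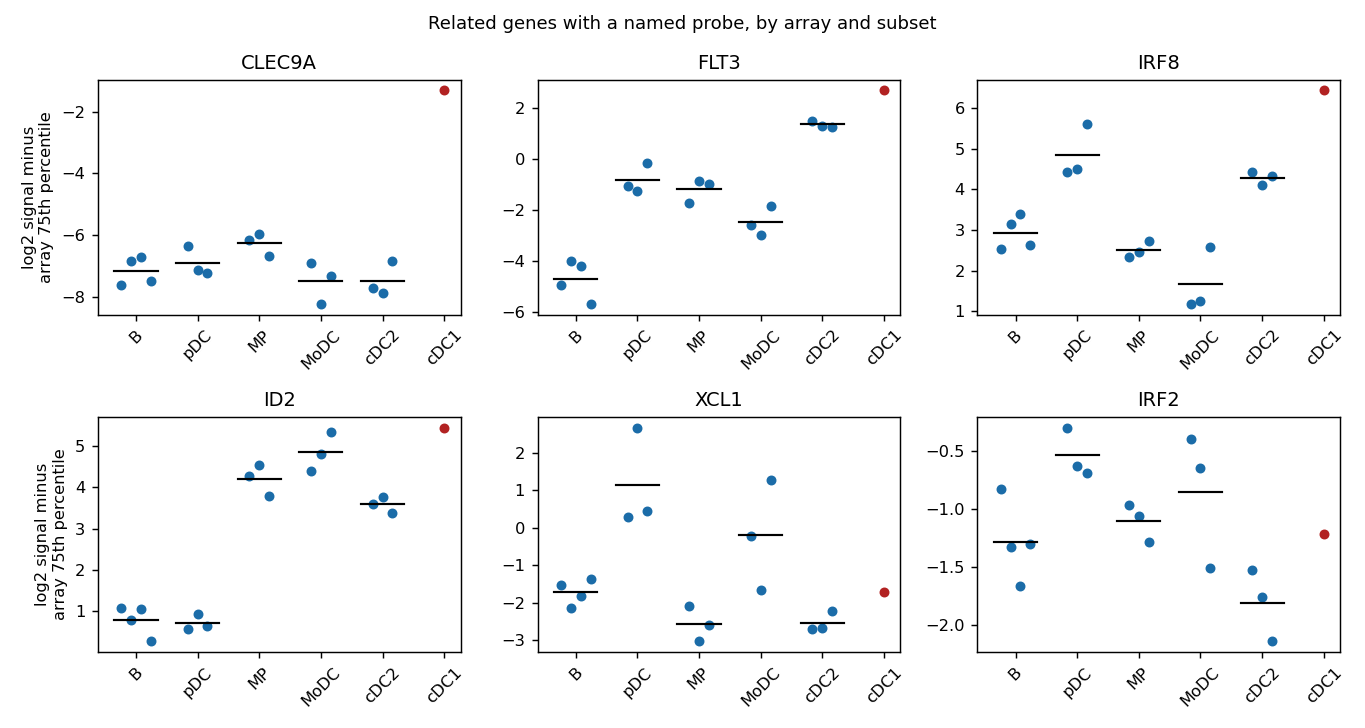
Level (log2 signal minus the array's 75th percentile, vertical axis) of 6 related genes on every array by subset. Points are arrays, the cDC1 array is red, and bars are means of replicated subsets. CLEC9A stands out on the cDC1 array alone, FLT3 is next highest on cDC2, IRF8 on pDC, ID2 on MoDC, XCL1 is highest on 1 pDC array, and in IRF2 the cDC1 array lies among the others.

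Over all 17 arrays the levels of XCR1 and BATF3 had a Pearson r of 0.79 (Spearman rho 0.70), those of XCR1 and CADM1 0.46 (-0.20) and those of BATF3 and CADM1 0.35 (-0.022). Over the 16 arrays without cDC1 these were 0.61 (0.64), -0.33 (-0.44) and -0.17 (-0.23). Arrays of 1 subset share their cells and arrays of 1 slide their processing, so these are descriptions. Named genes among the most like XCR1 over 17 arrays were CLEC9A (r = 0.80), BATF3 (0.79) and EPO (0.73). For CLEC9A, r with any member sets 1 array above background against 16 readings that were not, so it adds nothing to its lead on the cDC1 array. Without the cDC1 array they were ZFP36 (0.76), BMP7 (0.74), LYZ (0.69), AMHR2 (0.69) and ACVR2B (0.67), so that none of the former was left.

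For BATF3 the named genes most alike over 17 arrays were LGALS1 (r = 0.86), ID2 (0.82), XCR1 (0.79), IDH1 (0.79) and GSN (0.77). Over the 16 arrays they were LGALS1 (0.92), LOC443442 (0.91), TLR2 (0.88), AHR (0.86) and LOC443441 (0.86), with LGALS1 in rank 4 of 11310 genes of any name. For CADM1, CLEC9A (0.65), DNMT3L (0.59), LOC443295 (0.57) and TNNC2 (0.49) were among them over 17 arrays, as were HAND1 (0.69), IRF2 (0.65), BMP1 (0.64), IL12 (0.64) and AANAT (0.63) over 16. Only 277 genes other than the member itself carried a symbol. Most of the 5 most alike probes of any name were known by an expressed sequence tag or an identifier with no symbol. Their highest r was 0.86 for XCR1, 0.91 for BATF3 and 0.83 for CADM1 over 17 arrays, and 0.89, 0.93 and 0.87 over 16.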

How the data were processed

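The authors read the scanned arrays with Agilent Feature Extraction (version 10.7.3.1 for 12 arrays, 10.10.1.1 for 5, per the file headers) and deposited linear intensities per spot, corrected for background but not normalized between arrays, beside flags and median pixel intensities. The deposited series table holds the authors' values on a log2 scale, by a method the file does not state. Rows, which are only numbered there, were paired with probe names sorted alphabetically, and 17 of 17 columns were then most like the array they are named for (r = 0.969 to 0.988). That table was used as an alternative only, after each column was set to its 75th percentile.

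Levels are log2 intensity minus the array's 75th percentile, averaged over the spots of a probe without an outlier flag. Probes were kept if, in 1 subset or more, each array had over 50% of the probe's spots well above background. Where a gene had several probes, the brightest over all arrays stood for it. Symbols came from the files or, by accession, from a RefSeq table of sheep assembly ARS-UI_Ramb_v3.0, used for names only: 438 distinct symbols on 455 probes. limma 3.58.1 (R 4.3.3) was fitted to all 17 arrays, and functions were tested on simulated data. The arrays' number limits the precision.

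The 3 genes were given by name, and they, the gene lists, the markers and the tests were chosen with earlier results of these data known. Other genes are named when they belong to 4 lists (cDC1 genes, chemokines and their receptors, BATF, AP-1 and IRF genes, CADM1 relatives) or the marker lists, or are among the 5 of highest r with a member. Some genes that this rule names are not reported here.

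Replicate numbers come from the sample titles. Deviations from subset means of same-numbered arrays had r = 0.10 to 0.56 in the 6 pairs among B, pDC, MP and MoDC, where a number is also a slide, and -0.15 to 0.09 in the 4 pairs with cDC2, so numbers pair arrays among the former only. Alternatives were normexp on median signals (the slide 1 files used here give no mean signal), quantile and median scaling, the series table, no filter, all probes, slide or replicate as a block, the arrays of a pair alone and each array left out. Slides 1 to 3 alone, the same with slide as a block, and a floor of 32 on signals were added after the data were seen. No member had a second probe with its symbol. Only 455 of 15060 probes carried a symbol, and the others were not searched for the members.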

Additional observations from a re-analysis of the deposited data

How the results depend on the processing

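Of the 272 fits of a single pair under an alternative per gene, 246 for XCR1, 266 for BATF3 and 260 for CADM1 kept the direction and the side of the threshold, and no called pair changed direction. With normexp the XCR1 pairs called went from 4 to 0 and the leads of the cDC1 array to 2.20 (XCR1), 1.65 (BATF3) and 0.63 (CADM1). There were 2 XCR1 pairs called in the authors' series values, and with the arrays of a pair alone 1 CADM1 pair. The causes of these changes were not tested. With 1 array left out, 3 to 5 XCR1 pairs, 6 BATF3 pairs and 0 CADM1 pairs were called, and the XCR1 lead was 4.19 to 4.78, the higher value without cDC2 replicate 1. With the replicate number as a block, MP above MoDC in XCR1 became called (limma adjusted p = 0.0194), which made 5 pairs, and it changed no other call of a member.

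Directions turned only in uncalled pairs. With the median shift, whose scale moves the median difference of all genes in a pair from at most 0.32 to at most 0.18 in size, BATF3 was -0.26 for MP minus MoDC and 0.073 for MoDC minus cDC2, and CADM1 was 0.082 for B minus cDC2. The last was 0.054 with normexp, 0.032 with quantile scaling, 0.042 with the series table and 0.23 with slide as a block. With normexp, XCR1 was 0.15 for pDC minus MoDC and BATF3 -0.012 for MP minus MoDC. XCR1 was -0.037 for B minus MoDC in the series table and 0.27 for pDC minus MoDC with the floor of 32. With 1 array left out, XCR1 for pDC minus MoDC ran from -0.52 to 0.078 and BATF3 from -0.16 to 1.18 for B minus pDC and from -0.20 to 0.29 for MP minus MoDC. CADM1 then ran from -0.49 to 0.52 for B minus cDC2, from -0.77 to 0.33 for MP minus MoDC and from -0.014 to 1.09 for MP minus cDC2. The XCR1 signal outside the cDC1 array was 14.7 to 170 units. The 1 array of cDC1 limits what can be said of it.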
